A study of Mus musculus with 14 samples.

Results

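The genes described here are the mouse Zfp genes that were counted in single oocytes with and without maternal Kdm1a. A gene was a member when its symbol was Zfp followed by digits only and its counts summed over the 14 oocyte libraries reached 100. Zfp57 and Zfp42 were left out by the same rule. Of 331 such symbols among the 24064 genes of the count table, 113 were members and 218 fell under the minimum, 38 of them without a count. Because the members were chosen on their total counts, their levels are a description. All 113 were among the 9198 genes tested.

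Kdm1a encodes a histone demethylase. The study asked what its loss from the egg does, and compared 5 control with 5 mutant oocytes. The wt/wt control oocytes wt1, wt3, wt4 and wt5 were of strain C57BL/6J. The f/f control oocyte C3 carried floxed Kdm1a alleles without Cre, and the mutant oocytes, which were D1 to D4 and D7 (labelled mko/mko) had lost the first exon of Kdm1a through Cre driven by the oocyte promoter of Zp3. C3 and the mutant oocytes were of a mixed B6;129 strain. The methods give an age of 4 to 8 weeks for the f/f and Zp3-cre females that gave embryos, and state no age for the females of the oocytes. Oocytes are not tied to females, so p-values measure the spread between these oocytes, which may be technical in part. Strain and the naming scheme of the libraries separate the wt/wt oocytes from the rest, and neither can be told apart from genotype in those oocytes. RNA was primed at the poly(A) tail by the single-cell method of Tang, which reaches up to 3 kb from the 3' end, and was counted per gene.

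Zfp is the mouse symbol for zinc finger protein. Most of these proteins carry C2H2 fingers, each a small loop held by a zinc ion that reads a few bases of DNA, and many also carry a Krüppel-associated box (KRAB). The KRAB domain binds TRIM28, which brings the histone methyltransferase SETDB1, HP1 proteins and the NuRD complex to silence retroelements and imprinted genes. KRAB genes evolve quickly and lie in tandem clusters of related copies. Maternal stores of such repressors are known to act in the embryo after fertilization.

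Total counts per oocyte ran from 1375187 to 6928548 and were highest in C3 and D4, which together gave 45.8% of all counts. Without these oocytes 26 members would have stayed under the minimum. Kdm1a had 27 to 669 counts in control and 0 to 10 in mutant oocytes. The 12 oocyte marker genes on the list summed to 12132 to 48027 CPM (counts scaled to a common, TMM-adjusted library size) in control and 44070 to 102904 CPM in mutant oocytes, and Gdf9 made up 50.8% to 79.6% of each sum. The wt/wt oocytes held 12132 to 29359 CPM of this sum and C3 48027 CPM, which lay within the mutant range. Of the 12 markers 6, among them Zp3 and Gdf9, were called higher in mutants and none lower, while Dazl, Kit and Ddx4 had log2 fold changes of -0.99, -0.47 and -0.39. Dazl had an edgeR adjusted p of 0.0394 and missed a lower call on size alone. Of 11 cumulus and granulosa markers 7 had no count, among them Foxl2, Amh and Fshr. The summed level of this list was 9.40 to 62.9 CPM in control and 82.0 to 147 CPM in mutant oocytes, nearly all of it Cyp19a1 (37.7 ± 22.6 CPM, SD, n = 5, against 105 ± 26.7, SD, n = 5). The part of these differences in the results below was not tested.

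The sequences shown are those before the start sites of Zfp961 and Zfp873, the members of smallest p, and of Zfp820, which was called higher, and those around 2 neighbouring pairs on chromosome 17. They were taken from RefSeq promoters of build GRCm38.p6, whose starts can differ from those of the GENCODE genes given below, and are written 5' to 3'. Capitals mark the letters of CCAAT, of CCGCCC (an Sp motif) and of CACGTG (an E-box), read on both strands. The stretches before the RefSeq starts of Zfp961 (chr8:71950816-71951065, plus strand), Zfp873 (chr10:82047873-82048122, plus strand) and Zfp820 (chr17:21845760-21846009, minus strand) hold 250 bases each.
Zfp961: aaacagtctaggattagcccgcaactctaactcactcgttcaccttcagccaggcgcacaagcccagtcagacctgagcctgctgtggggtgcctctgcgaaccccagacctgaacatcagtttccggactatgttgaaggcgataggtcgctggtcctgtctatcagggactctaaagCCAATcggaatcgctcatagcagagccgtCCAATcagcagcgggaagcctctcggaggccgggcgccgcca
Zfp873: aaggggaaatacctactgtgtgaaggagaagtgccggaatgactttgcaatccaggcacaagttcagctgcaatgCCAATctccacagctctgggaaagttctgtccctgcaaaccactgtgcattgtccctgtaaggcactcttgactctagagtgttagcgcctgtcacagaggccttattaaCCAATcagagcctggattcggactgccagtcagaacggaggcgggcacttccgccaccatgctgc
Zfp820: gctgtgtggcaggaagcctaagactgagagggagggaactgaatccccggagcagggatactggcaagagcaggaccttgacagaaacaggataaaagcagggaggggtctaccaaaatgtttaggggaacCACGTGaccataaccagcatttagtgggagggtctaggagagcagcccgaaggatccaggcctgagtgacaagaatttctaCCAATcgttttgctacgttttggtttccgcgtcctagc

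Zfp942 and Zfp943 start head to head on chromosome 17 with 87 bases between them, and Zfp944 and Zfp758 do so with 52. The bases between the starts lie at chr17:21962465-21962551 and chr17:22361401-22361452 and are shown on the plus strand.
Zfp942 and Zfp943: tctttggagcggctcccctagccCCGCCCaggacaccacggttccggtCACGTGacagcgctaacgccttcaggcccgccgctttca
Zfp944 and Zfp758: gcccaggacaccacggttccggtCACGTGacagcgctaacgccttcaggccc
The shorter stretch is found whole within the longer. Among the 27025 RefSeq promoters searched, these letters were found in the promoters of those 4 genes alone. Zfp942 and Zfp944, the minus-strand genes of the pairs, both fell in mutant oocytes, while Zfp943 and Zfp758 were not called (values are given with the run of neighbours below). The difference between the genes of a pair was not tested.

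A RefSeq promoter, 250 bases before to 50 after the start, was matched to 93 of the 113 members and to 7033 of the 9198 genes tested. CACGTG was present in 11.8% of member promoters and 10.5% of those of all genes tested. CCAAT, shown above for Zfp961, Zfp873 and Zfp820, was present in 39.8% and 39.7%, and in 25% of the 20 promoters matched to members called lower, 57.1% of the 7 matched to members called higher and 42.4% of those not called. CCGCCC was found in 51.6% of member promoters against 64.0% in all genes tested, and in 43.4% of those of KRAB members. Median GC content was 56.3% in members and 61% in all genes tested. These matches describe letters and no binding was measured.

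Coding sequences of the GENCODE M21 annotation (GRCm38) were found for 111 members, and 60 of these encoded a KRAB box together with C2H2 fingers or alone, 47 C2H2 fingers without KRAB, and 4 neither (Zfp36, Zfp330, Zfp703 and Zfp750). Zfp607 had no match by symbol and Zfp939 is annotated as a transcribed unprocessed pseudogene. The median number of fingers was 10, and the highest were 30 in Zfp236 and 27 in Zfp423. A KRAB box was found in 54.1% of members and in 57.5% of the 214 Zfp genes under the minimum that had a coding model. Sequence similarity bears on the counts, since the authors kept reads with a unique best alignment. In 64 members no 49-base window of the counted transcript end was shared with another locus, while 15 shared over 10% of their windows and Zfp97, Zfp600, Zfp781 and Zfp960 over 50%.

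The members of highest level, per kb of exon and over the 10 oocytes, were Zfp513 (163 CPM per kb), Zfp655 (104), Zfp706 (97.6), Zfp664 (74.1) and Zfp820 (50.1). Counting no more than 3 kb of exon, which is what the priming can reach, put Zfp664 first at 194 CPM per kb and kept the same 5 genes at the top. Zfp820 stood there through the mutants (83.8 CPM per kb), since in controls it was at 16.4 CPM per kb and ranked 20 among members, below Zfp873 (35.0) and Zfp616 (34.7). Zfp513 measured 172, 327, 251 and 643 CPM in the wt/wt oocytes, in the order wt1, wt3, wt4 and wt5, 588 in C3, and 419, 621, 521, 198 and 293 in the mutants, in the order D1 to D4 and D7. The groups overlapped, and the log2 fold change, mutant over control, was 0.05 (SE 0.42, edgeR adjusted p = 0.942). Zfp655, a KRAB gene, was at 717 ± 282 CPM (SD, n = 5) in control and 442 ± 142 (SD, n = 5) in the mutants, with a log2 fold change of -0.70 (SE 0.36, edgeR adjusted p = 0.163). Zfp706, which encodes a small protein with 1 finger, was at 633 ± 122 CPM (SD, n = 5) and 339 ± 135 CPM (SD, n = 5), and its log2 fold change of -0.90 (SE 0.35) had an edgeR adjusted p of 0.0676. Zfp664 was called lower and Zfp820 higher, as described below. At the minimum, Zfp516 with 100 and Zfp703 with 105 counts were just inside, level with Zfp846 and Zfp618 at 105, and Zfp108 with 99 and Zfp9 with 93 just outside.

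The summed level of the 113 members was 5420, 6378, 6249 and 5498 CPM in the wt/wt oocytes, 8143 CPM in C3 and 3751, 4035, 5206, 3851 and 4665 CPM in the mutant oocytes. Each mutant oocyte lay below each control oocyte, with means of 6338 ± 1097 CPM (SD, n = 5) in control and 4302 ± 618 CPM (SD, n = 5) in mutant oocytes. The margin was narrow, with wt1 at 5420 CPM and D3 at 5206 CPM. Without Zfp664 the sum was 4652 to 6880 CPM in control and 3579 to 4810 CPM in mutant oocytes, which overlap. As a share of the raw counts the members held 0.531% to 0.851% in control and 0.292% to 0.451% in mutant oocytes. By class, KRAB members summed to 2587 ± 732 CPM (SD, n = 5) in control and 1882 ± 342 CPM (SD, n = 5) in mutant oocytes, and these groups overlapped. C2H2 members without KRAB summed to 3555 ± 418 CPM (SD, n = 5) and 2214 ± 310 CPM (SD, n = 5), and here too the groups overlapped once Zfp664 was taken out (2316 to 2828 against 1676 to 2321 CPM). The highest single member was Zfp664 in each control oocyte, Zfp513 in D1 and D2, and Zfp655 in D3, D4 and D7. In bulk RNA of a whole oocyte, less RNA from a gene and more RNA from other genes cannot be told apart on a CPM scale.

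**Figure D1:**
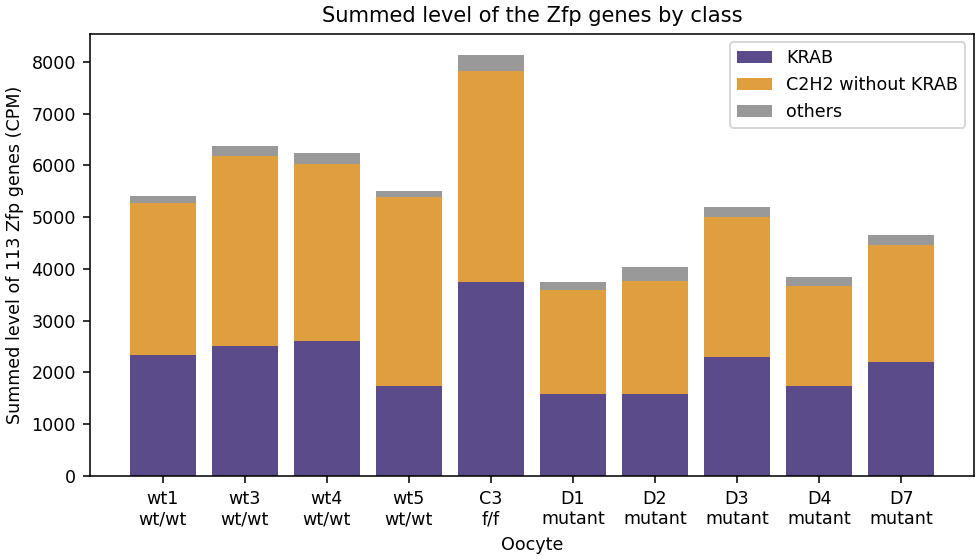
Summed level in CPM of the 113 Zfp genes in each of the 10 oocytes, stacked by class (KRAB, C2H2 fingers without KRAB, others). C3 is highest at 8143 CPM, and the mutant oocytes lie between 3751 and 5206 CPM.

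Mutant and control oocytes were then compared gene by gene with edgeR's quasi-likelihood test across all 9198 genes. A gene was called at a Benjamini-Hochberg adjusted p under 0.05 and a log2 fold change of at least 1 in size. Of the 113 members 25 were called lower in mutant oocytes (22.1%), against 11.2% of all genes tested and 13.1% of genes that also had 100 counts or more. Called higher were 8 members (7.08%), against 14.7% of all genes tested and 16.0% of those with 100 counts or more. The median log2 fold change was -0.57 over members and 0.17 over all genes tested, and 74 of the 113 lay below 0. Relative to these backgrounds more members were lower and fewer were higher. The 53 Zfp genes tested with a total under 100 had 2 lower and 2 higher calls (3.77% each). Their median log2 fold change was 0.13. The mutant oocytes all lay below the control oocytes in 19 members, against 8.09% of all genes tested, and above in 1, against 8.10%.

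Of the 58 members with at least 100 counts in the control and in the mutant oocytes alone, 14 were called lower (24.1%) and 4 higher (6.90%). Among all genes tested with as many counts in each group, 14.8% were called lower and 12.1% higher. Scaling by library totals in place of TMM moved the median of all genes tested from 0.17 to -0.22 and that of members from -0.57 to -0.83, and called 34 members lower and 6 higher. Over all genes tested that scaling turned 1353 higher and 1032 lower calls into 965 and 1667. Without wt1, without D1 or without D2 the count of members called higher was 5 in place of 8, and over all genes tested it was 975, 898 and 1121 in place of 1353. With C3 as the one control, which shares strain and naming with the mutants, no member was called and 3 of 8811 genes were, 1674 genes having an unadjusted p under 0.05. That fit shares C3 and the mutants with the main comparison, and of the 33 called members Zfp473 had a log2 fold change of the other sign, 0.05.

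**Figure D2:**
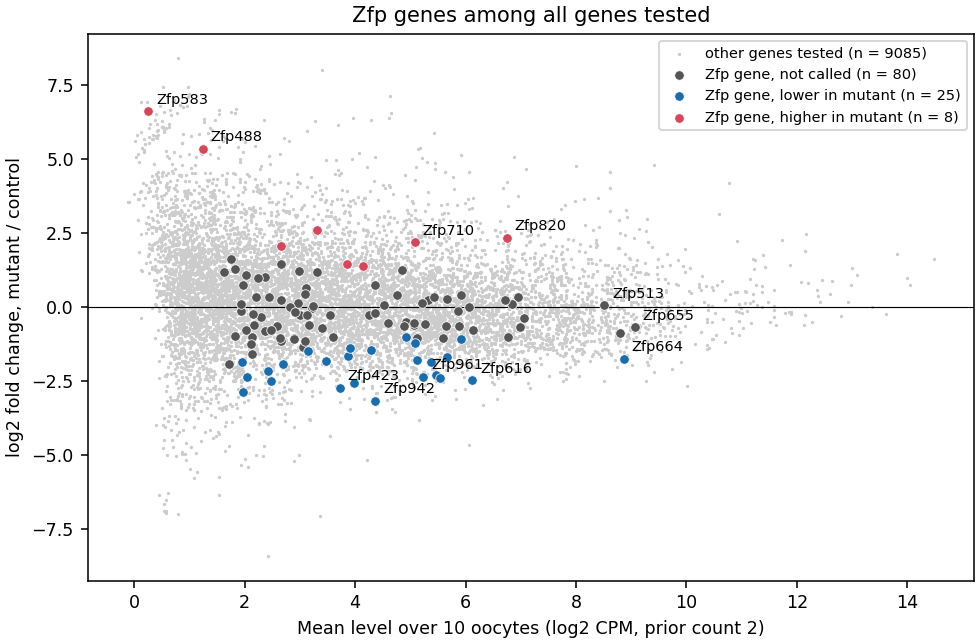
Log2 fold change, mutant over control oocytes, plotted against the mean level over 10 oocytes (log2 CPM with a prior count of 2), with 113 Zfp genes on the other genes tested in grey. Called Zfp genes are blue when lower (n = 25) and red when higher (n = 8), and the lower ones run from -1.03 to -3.18.

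The 8 called members of smallest p whose groups did not overlap were 5 KRAB genes and 3 C2H2 genes without KRAB. Zfp961, a KRAB gene with 11 fingers on chromosome 8 (71951038 to 71993792, plus strand), measured 95.5, 79.6, 126 and 86.8 CPM in the wt/wt oocytes, 52.5 in C3 and 10.4, 24.3, 23.1, 11.1 and 15.9 in the mutant oocytes. All control oocytes were above all mutant oocytes, and C3 lay between the wt/wt and the mutant ranges. The log2 fold change was -2.38 (SE 0.39, edgeR adjusted p = 0.000888), and -1.61 with C3 as the one control. Zfp961 overlaps Gm45694 on its own strand and Cyp4f18 on the other, and the study does not state whether counting used the strand.

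Zfp873, a KRAB gene with 16 fingers on chromosome 10, showed the same order. Its levels were 119, 131, 152 and 84.1 CPM in the wt/wt oocytes, 70.0 in C3, and 11.5, 21.9, 19.9, 14.4 and 36.3 in the mutants, and its log2 fold change was -2.42 (SE 0.40, edgeR adjusted p = 0.000896), or -1.73 with C3 as the one control. Zfp616, a KRAB gene with 18 fingers on chromosome 11, stood at 258, 165, 146 and 64.0 CPM in the wt/wt oocytes, 239 in C3, and 35.5, 32.8, 21.3, 23.2 and 43.3 in the mutants. Here C3 lay among the wt/wt oocytes, and the log2 fold change was -2.48 (SE 0.41, edgeR adjusted p = 0.000896). Its neighbour Zfp735, another KRAB gene, was also called lower, from 73.2 ± 46.1 CPM (SD, n = 5) to 21.2 ± 7.54 CPM (SD, n = 5), although its groups overlapped through wt5 (11.2 CPM).

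C2H2 genes without KRAB followed. Zfp664 was the most abundant of them, with 630, 893, 860 and 846 CPM in the wt/wt oocytes, 1263 in C3 and 172, 170, 396, 240 and 337 in the mutants. C3 was the highest of all oocytes, and the log2 fold change was -1.77 (SE 0.36, edgeR adjusted p = 0.00276). Zfp654 fell from 91.1 ± 20.01 CPM (SD, n = 5) to 28.1 ± 6.33 CPM (SD, n = 5), with C3 at 88.4 CPM, among the wt/wt values of 71.9 to 123 CPM. Zfp449 on the X chromosome measured 132, 121, 160 and 90.4 CPM in the wt/wt oocytes, 28.6 in C3 and 26.8, 21.9, 20.6, 10.3 and 27.9 in the mutants. C3 stood beside the mutants in Zfp449, just above the highest of them, so the gap between the groups was narrow, and with C3 as the one control the log2 fold change was -0.39 against -2.31 (SE 0.45, edgeR adjusted p = 0.00242) with all controls. The call was lost under a replicate block (-1.85).

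**Figure D3:**
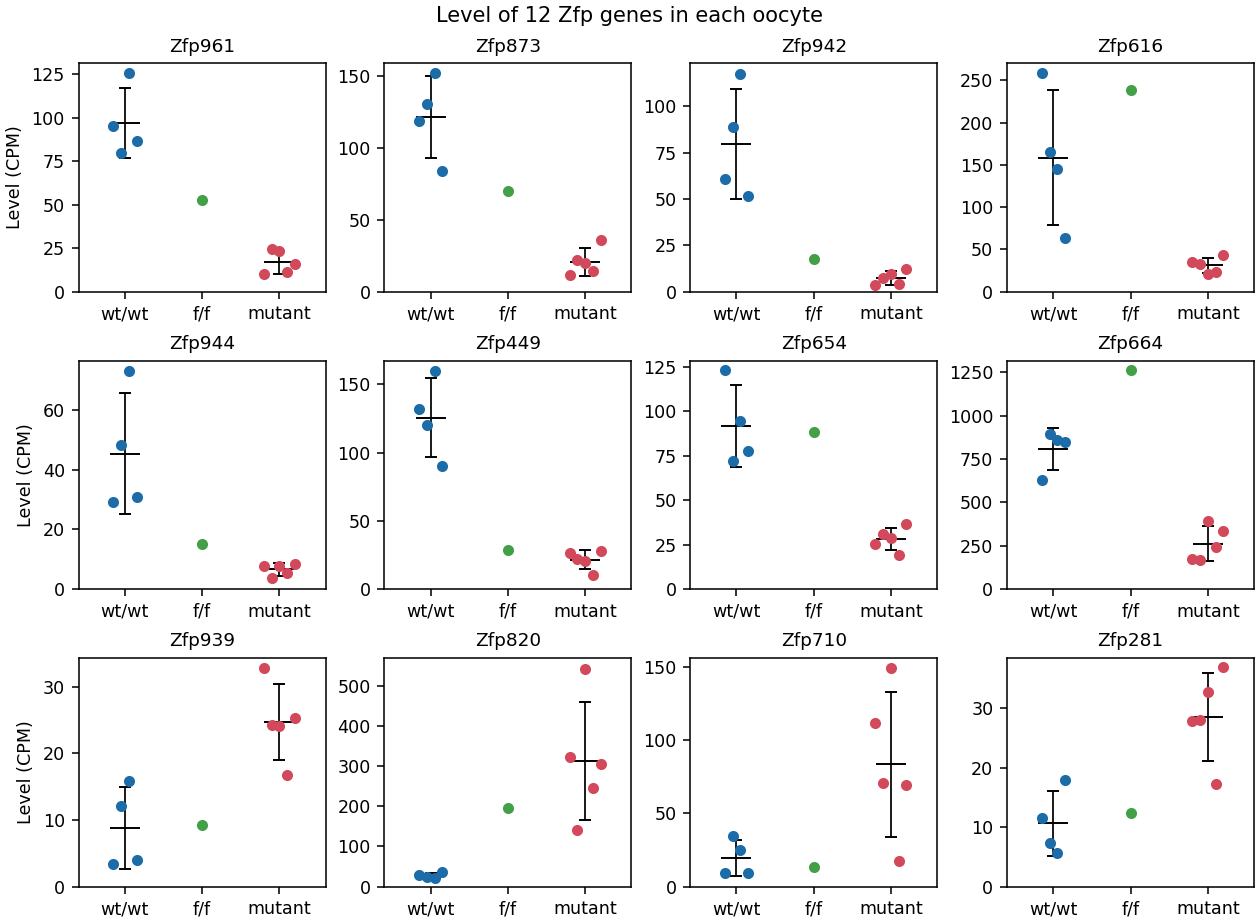
Level in CPM of 12 Zfp genes in each oocyte, by group, with the mean and SD of the 4 wt/wt and of the 5 mutant oocytes in black and the f/f oocyte C3 in green. The first 8 genes were lower in every mutant oocyte, and in Zfp449 the f/f oocyte (28.6 CPM) sat beside the highest mutant oocyte (27.9 CPM).

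The other 17 members called lower covered a wide range of levels. Zfp423, a transcription factor with 27 fingers known from fat and brain development, went from 36.9 ± 11.8 CPM (SD, n = 5) in control to 5.59 ± 4.19 CPM (SD, n = 5) in mutant oocytes, with no overlap (log2 fold change -2.74, SE 0.63, edgeR adjusted p = 0.00592). Low levels were seen for Zfp606, Zfp870, Zfp69, Zfp329 and Zfp846, at means of 1.27 to 2.25 CPM in mutant oocytes and 6.20 to 12.1 CPM in controls. Zfp92 on the X chromosome was between 4.48 and 5.47 CPM in the 5 mutant oocytes and between 9.94 and 22.8 CPM in the controls. Zfp131, Zfp318, Zfp692 and Zfp740 had the log2 fold changes of smallest size, with values of -1.09, -1.21, -1.03 and -1.38. Over all 25 the log2 fold change ran from -3.18 to -1.03 with a median of -1.85. Of these 25, 10 reached 100 counts in the controls but not in the mutants, so this choice favoured their falls. They were Zfp69, Zfp92, Zfp174, Zfp236, Zfp329, Zfp423, Zfp606, Zfp870, Zfp942 and Zfp944. Zfp846 reached 100 counts in neither group alone.

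Against the range of the wt/wt oocytes, C3 was within it in 16 of the 25 members called lower, below it in 6 and above it in 3. Over all 113 members C3 was within the wt/wt range in 56, below it in 23 and above it in 34. On a log2 CPM scale the median of C3 minus wt/wt was -0.20 over the 25 and 0.19 over all members. Zfp473 was the one member called lower with C3 inside the range of the mutants (12.2 CPM in C3, 4.86 to 18.9 CPM in the mutants). C3 was itself among the controls that chose these 25, and the values of 1 oocyte have no error of their own.

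**Figure D4:**
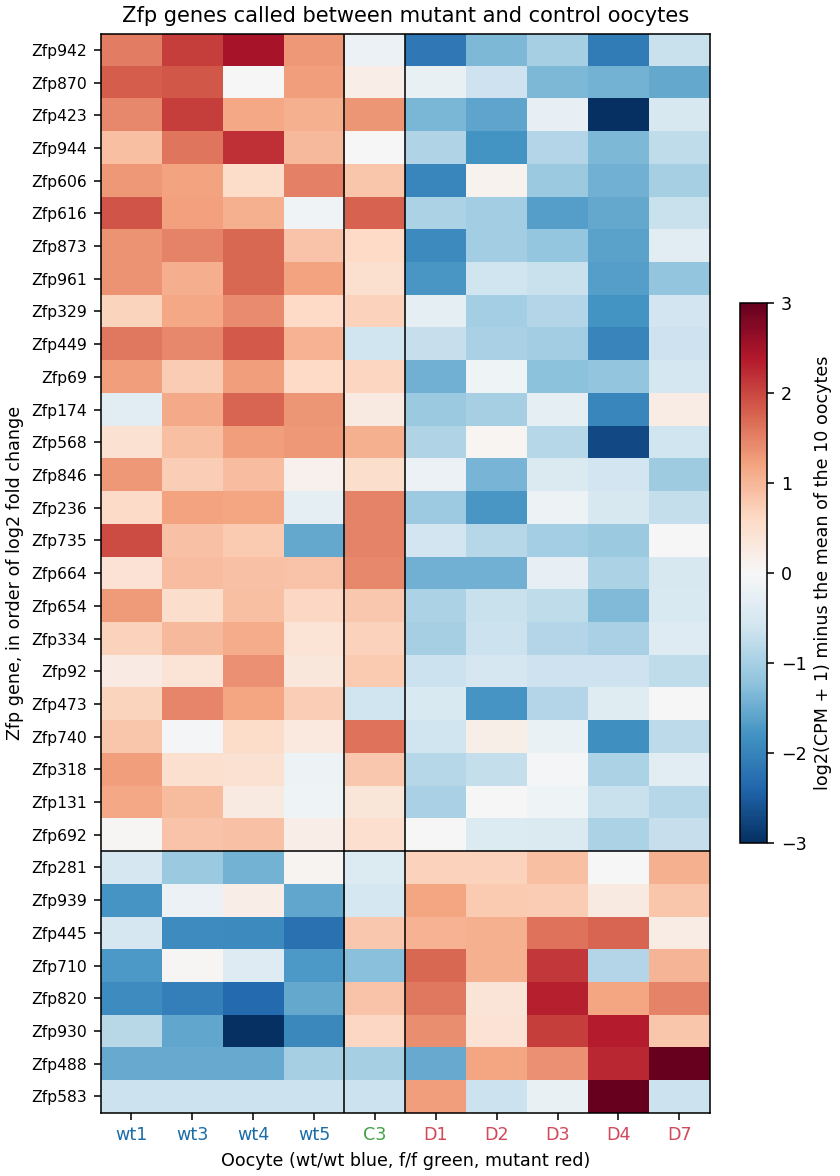
Level of the 33 called Zfp genes in each oocyte as log2(CPM + 1) minus the mean of the gene over the 10 oocytes, in order of log2 fold change, with wt/wt, f/f and mutant oocytes from left to right. The upper 25 genes are lower and the lower 8 higher in mutants, and C3 is near the wt/wt oocytes for most of the upper genes and near the mutants in Zfp820, Zfp930 and Zfp445.

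Among the 8 members called higher, Zfp939 had groups without overlap. It measured 3.31, 12.1, 15.9 and 4.03 CPM in the wt/wt oocytes, 9.30 in C3 and 32.8, 24.3, 24.2, 16.7 and 25.4 in the mutants, with a log2 fold change of 1.45 (SE 0.48, edgeR adjusted p = 0.0348). The call was lost when wt1, wt5, D1 or D2 was left out (log2 fold changes of 1.25, 1.32, 1.35 and 1.48), and also under library totals (1.01), a replicate block (1.59) and thinned counts (1.55). The gene is an annotated pseudogene that shares 12.3% of its windows with other loci. Groups overlapped in the other members called higher, and Zfp488, Zfp583, Zfp710 and Zfp930 were named after their values were seen.

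Zfp820, a KRAB gene with 12 fingers, was the most abundant of these. Its levels were 28.2, 25.0, 20.4 and 36.2 CPM in the wt/wt oocytes, 194 in C3 and 323, 142, 542, 246 and 304 in the mutant oocytes. C3 was far above the wt/wt oocytes and within the mutant range. The log2 fold change was 2.35 (SE 0.60, edgeR adjusted p = 0.0107), with C3 as the one control it was 0.71, and without C3 it was 3.50. Zfp930 and Zfp445 had the same order of groups, at 0 to 4.97 and 0.45 to 3.87 CPM in the wt/wt oocytes, 15.3 and 11.1 CPM in C3, and 13.4 to 52.8 and 6.96 to 22 CPM in the mutants. Their log2 fold changes were 2.59 and 2.07 with all controls, 3.75 and 3.39 without C3, and 1.04 and 0.48 with C3 as the one control. C3 shares strain and library naming with the mutants, and these cannot be told apart.

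Zfp710 measured 9.39, 34.4, 25.3 and 9.40 CPM in the wt/wt oocytes, 13.3 in C3 and 112, 70.5, 149, 17.8 and 69.1 in the mutants. Every mutant oocyte but D4 was above every control oocyte, and the log2 fold change was 2.18 (SE 0.53, edgeR adjusted p = 0.00845). Zfp445, Zfp488, Zfp583 and Zfp930 had under 100 counts in the controls and were members through their counts in mutants, so their ratios describe genes that this choice favoured. Zfp488, known from oligodendrocyte differentiation, had 3 counts over the 5 control oocytes and 164 over the mutants, a ratio of 48.96 per adjusted library size (95% exact interval 16.5 to 240, counting error alone). It was not counted in D1, and the other 4 mutant oocytes held 5.47 to 26.4 CPM. Zfp583 had no count in the control oocytes and 118 in the mutants, 112 of them in D4, where both libraries held it (66 and 46 counts). Against a floor of 3 counts over the control group it was at least 35.2-fold higher, but this rests on D4, without which the gene did not pass the filter. The call was also lost with DESeq2 and under a replicate block.

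Of 6 Zfp genes on the list with a role in silencing 5 were members, of which 1 was called lower and 1 higher, too few to set against the 11.2% and 14.7% of all genes tested. Zfp568, which represses a placental promoter of Igf2, was at 56.9, 77.1, 99.1 and 103 CPM in the wt/wt oocytes, 87.3 in C3 and 21.3, 42.5, 22.04, 5.46 and 26.9 in the mutants. It fell without overlap of the groups (log2 fold change -1.85, SE 0.45, edgeR adjusted p = 0.00801). Zfp445, which protects imprinted regions, was called higher (log2 fold change 2.07, SE 0.72, edgeR adjusted p = 0.0436), a call that was lost when any of wt1, wt3, wt4, wt5, D1, D2, D3 or D4 was left out, with log2 fold changes of 1.83 to 2.14, and also with thinned counts (1.74). Zfp708, Zfp819 and Zfp932, known as repressors of retroelements, were not called, with log2 fold changes of -0.66, -1.25 and -1.61 and edgeR adjusted p of 0.292, 0.297 and 0.12. Zfp932 shares 45.8% of its windows, chiefly with Gm15446, so its counts are uncertain.

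The lists of transcription factors and cofactors held 5 and 3 members, also too few to set against all genes. Of the 5 factors Zfp423 fell and Zfp281, a factor of pluripotent cells, was called higher, from 10.99 ± 4.78 CPM (SD, n = 5) to 28.5 ± 7.35 CPM (SD, n = 5). The call for Zfp281 (log2 fold change 1.37, SE 0.43, edgeR adjusted p = 0.0276) was lost when wt1, wt3, wt4, D1, D2, D3 or D7 was left out, with log2 fold changes of 1.20 to 1.38, and also under library totals (0.94), thinned counts (1.06) and a replicate block (1.75). Zfp143, Zfp148 and Zfp410, an activator of the Chd4 gene, were not called, at 2.23 against 5.69, 42.7 against 27.7 and 10.98 against 7.10 CPM. Of the chromatin cofactors, Zfp516 and Zfp592 were not called. Zfp451, a SUMO ligase, was the 1 uncalled member whose groups did not overlap, with 53.6 to 91.7 CPM in control and 13.98 to 49.2 CPM in the mutants and a log2 fold change of -1.04 (SE 0.40, edgeR adjusted p = 0.065).

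None of the 5 members with roles in RNA, ribosomes or the spindle was called, again too few to set against all genes. They were Zfp36, which binds AU-rich messages, Zfp598, a ligase of stalled ribosomes, Zfp106, Zfp207, which serves the spindle checkpoint, and Zfp830. Zfp598 was at 114 ± 48.99 CPM (SD, n = 5) in control and 123 ± 19.98 CPM (SD, n = 5) in mutant oocytes, and Zfp207 at 164 ± 38.3 CPM (SD, n = 5) and 102 ± 30.8 CPM (SD, n = 5). Their log2 fold changes were 0.11 (SE 0.34) and -0.68 (SE 0.33), with edgeR adjusted p of 0.843 and 0.139. Among all 80 uncalled members 49 lay below 0 and 31 above, 57 were within 1 on the log2 scale, and 10 had an unadjusted p under 0.05, of which 7 were lower.

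Calls in both directions were found in both main classes, and both inside and outside runs of neighbouring genes. Of the 60 KRAB members 13 were called lower and 4 higher, with a median log2 fold change of -0.54. Of the 47 C2H2 members without KRAB 12 were called lower and 3 higher, with a median of -0.68. Members called lower had a median of 11 fingers, those called higher 12 and those not called 10. By position, 57 members lay in 21 runs of neighbours whose starts were within 500 kb, and 13 of these were called lower and 2 higher. The 56 members outside runs had 12 lower and 6 higher. Over all genes tested 11.2% were called lower and 14.7% higher. Differences between these classes were not tested.

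The longest run held 11 KRAB members on chromosome 17 between 21008903 and 22456689. Zfp942 and Zfp944 fell there and Zfp820 was called higher, while the other 8 were not called, with log2 fold changes from -1.37 to 1.63. Zfp942 was at 60.7, 88.7, 117 and 51.5 CPM in the wt/wt oocytes, 17.7 in C3 and 3.83, 7.29, 9.60, 3.94 and 12.4 in the mutants (log2 fold change -3.18, SE 0.53, edgeR adjusted p = 0.000896). C3 was again between the wt/wt and mutant ranges, and with C3 as the one control the log2 fold change was -1.23. Zfp942 had under 100 counts in the mutants and was a member through its control counts, a choice that favours a fall.

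Zfp944 showed the same order at 29.3, 48.2, 73.0 and 30.9 CPM in the wt/wt oocytes, 15.1 in C3 and 7.65, 3.65, 7.82, 5.31 and 8.46 in the mutants (log2 fold change -2.57, SE 0.48, edgeR adjusted p = 0.00178, and -1.16 with C3 as the one control). Zfp944 too had under 100 counts in the mutants and was a member through its control counts. It shares 10.7% of its windows with other loci, most often with Zfp942, and Zfp942 shares 5.52%, most often with Zfp946, so a part of the reads of such windows could not be assigned. Their head-to-head partners differed from them in control oocytes, where the partners were lower in level. Zfp943 was at 9.39, 11.6, 15.1 and 7.61 CPM in the wt/wt oocytes, 8.86 in C3 and 5.47, 3.04, 12.4, 19.1 and 1.99 in the mutants, and Zfp758 was at 24.8, 3.44, 4.08 and 3.13 CPM, 8.64 CPM, and 6.56, 7.90, 7.11, 3.94 and 13.9 CPM. Both partners overlapped between the groups, with log2 fold changes of -0.28 (SE 0.58) and -0.16 (SE 0.63).

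**Figure D5:**
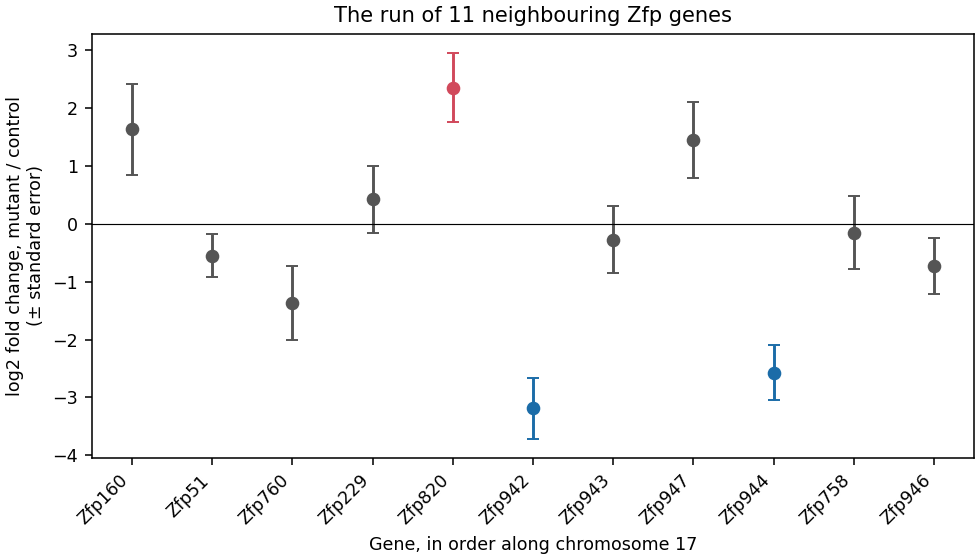
Log2 fold change, mutant over control oocytes, with its standard error for the 11 Zfp genes of the run on chromosome 17, in order along the chromosome. Zfp820 (2.35) and its neighbour Zfp942 (-3.18) are the highest and the lowest of the run.

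The partners through which KRAB proteins silence were read in the same fit. Of 22 genes on this list 3 were called higher and 3 lower (13.6% each), near the 14.7% and 11.2% of all genes tested, with a median log2 fold change of 0.10. The single genes named here are a description of the list. Trim28, the shared corepressor, was at 474 ± 102 CPM (SD, n = 5) in control and 483 ± 330 CPM (SD, n = 5) in mutant oocytes (log2 fold change 0.02, SE 0.44), and Setdb1 at 50.5 ± 17.8 CPM (SD, n = 5) and 53.3 ± 10 CPM (SD, n = 5). Dnmt1, the maintenance DNA methyltransferase, was at 662 ± 783 CPM (SD, n = 5) and 5810 ± 1407 CPM (SD, n = 5), with a log2 fold change of 3.13 (SE 0.62, edgeR adjusted p = 0.00261). Chd4 of the NuRD complex and Mphosph8 of the HUSH complex were called higher at 2.28 and 2.92 on the log2 scale. C3 was above the wt/wt oocytes in each of these genes. Mphosph8 was at 5.60 to 13.3 CPM in wt/wt oocytes, 55.6 in C3 and 44.3 to 344 in mutants. Dnmt1 was at 178 to 617, 2026 and 4830 to 8156 CPM, and Chd4 at 7.18 to 53.0, 79.7 and 130 to 295 CPM. Smarcad1, Morc3 and Trim33 were called lower at -1.23, -1.73 and -1.10. C3 was within the wt/wt range in Morc3 and Trim33 and below it in Smarcad1.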

How the data were processed

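Single oocytes were profiled by poly(A)-primed RNA-seq with 49-base single-end reads. The authors deposited raw counts for each RefSeq gene. They filtered the reads, aligned them to mm10 (TopHat2 2.0.6 in the submitters' processing notes), kept unique best alignments and counted these with HTSeq (0.5.3p9 in the same notes, a later version in the study's methods). The 14 libraries were summed by oocyte name into 10 oocytes, because the study's 5 oocytes per group are reached when each shared name (C3, D3, D4, D7) counts once. The labels number these libraries as separate oocytes. One of the 2 columns of C3 is spelled 3C in the table and was matched to the library title with the letters in the other order.

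The 60% of genes with the highest total count entered the tests (9198 of 15432 with a count). The groups were set against each other with edgeR 4.0.16 in R 4.3.3 (TMM, glmQLFit, glmQLFTest, genotype as the term) and Benjamini-Hochberg adjustment over all genes tested. CPM used TMM-adjusted library sizes, and values of a log2 CPM used a prior count of 2. Total counts, 1375187 to 6928548 per oocyte, put 3 counts at 0.455 to 1.82 CPM. PCR reads are not independent molecules, so intervals and floors cover counting error only.

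Coordinates, exon lengths, fingers and KRAB boxes came from GENCODE M21, matched by symbol for 112 members. Fingers and KRAB boxes were found by patterns in its translated coding sequences, where the plan had named RefSeq proteins. A window was shared when its 49 bases, within the last 3000 of a transcript, occurred in a transcript of another locus.

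Members, lists and roles were chosen with earlier results of these data known. Genes named are the 8 called members of smallest p in each direction whose groups do not overlap, the 5 of highest level per kb, those next to the minimum and those with listed roles. Others were named after their values were seen. Alternatives were DESeq2 1.42.0, library totals, no filter, filterByExpr, every library as its own sample with and without a replicate block, 1 library per oocyte, C3 alone as control, thinned counts, an adjusted p alone, other minimum levels and leaving out each oocyte. Leaving out C3 and D4 together was chosen after seeing the data. Embryo libraries were not used here.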

Additional observations from a re-analysis of the deposited data

Results flagged for a closer look

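In groups of 5 oocytes, a sample stood apart when its gap to the nearest of the others exceeded 0.71 of the whole range, Dixon's 95% critical value. Of 74 sets tested, 3 had such a sample, where chance gives about 1 in 20 (3.7 sets). The sets did not cover all 113 members, so this count does not describe the rest. Zfp113 and Zfp316 were left out, with C3 at 279 and 32.8 CPM. The wt/wt oocytes held 8.16 to 41.2 and 0.816 to 5.37 CPM. Over all 113 members C3 was above the wt/wt range in 34 and below it in 23.

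Among control oocytes Zfp820 was at 194 CPM in the f/f oocyte C3, and the next value was 36.2 CPM in wt5, a gap of 0.909 of the range. C3 is the one control of mixed strain and the deepest control oocyte, and its 2 libraries held 530 and 347 counts. Zfp592 was at 95.3 CPM in wt5 and 40.5 CPM in wt3 (0.717 of the range). Among mutant oocytes Zfp583 was at 16.99 CPM in D4 and 2.73 CPM in D1 (0.839 of the range).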

How the results depend on the processing

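The calls of the main comparison were 8 members higher, 25 lower and 6 KRAB cofactor genes. DESeq2 gave 8 and 28 members and kept 32 of the 33 calls, all but Zfp583, and library totals gave 6 and 34 and kept 31. Leaving out the filter gave 8 and 20, filterByExpr 6 and 20, 1 library per oocyte 8 and 23, thinned counts 6 and 17, and every library as its own sample 9 and 26. Over all genes these fits called 1353 higher and 1032 lower (main), 1615 and 1187 (DESeq2), 1544 and 996 (no filter), 1019 and 819 (filterByExpr) and 1075 and 879 (thinned). The all-gene counts were 1291 and 1089 with 1 library per oocyte, and 1641 and 1245 with every library as its own sample. Without C3 and D4 the counts were 9 and 25, with 29 of the 33 calls kept, and 1510 and 1198 over all genes. Leaving out 1 oocyte at a time gave 5 to 10 higher and 18 to 26 lower members and 4 to 8 cofactor genes, and kept 24 to 31 calls. Over all genes, leaving out 1 oocyte gave 898 to 1725 higher and 709 to 1160 lower calls. With C3 as the one control the counts were 0 members higher, 0 lower and 0 cofactor genes, a fit that takes the lone control to vary like the mutants. Over all genes 3 were then called by edgeR and 1674 had an unadjusted p under 0.05. A minimum total of 500 counts left 53 members with 4 higher and 16 lower calls (682 and 671 of 4069 genes), and a mean of 5 CPM in each group left 78 with 4 higher and 18 lower (662 and 749 of the 5331 genes tested at that level). With a replicate block on the label numbers, every library its own sample, 5 members were higher, 9 lower, and 14 of the 33 calls were kept. Over all genes this block took the calls from 2886 to 966. Deviations of same-numbered libraries correlated at -0.093 to 0.101, which shows no sign of pairing by number. The pairs numbered 1 and 2 each hold a library of C3, the 1 f/f oocyte. Those deviations are differences between its own libraries, so these pairs cannot show pairing. The cause of these shifts was not tested. Of 18 named called members none changed sign under the alternatives that tested it. Zfp488 and Zfp583 did not pass filterByExpr, and Zfp583 did not pass the filter without D4. Among the other called members Zfp473 changed sign with C3 as the one control (log2 fold change 0.05). Depth limits the low members, since 3 counts stand for up to 1.82 CPM.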
